A study of Homo sapiens with 10 samples.

Results

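The counted regions that the authors left out of their annotated table were examined: 102250 of 169637 regions (60.3%), identified as the entries of the full count table whose identifier is absent from the table filtered and annotated with genes. The other 67387 regions are called annotated here. Every region was 502 bp wide. H3K27ac, the acetylation of lysine 27 on histone H3, was measured by ChIP-seq in NCI-H1975, an established human lung adenocarcinoma line with mutant EGFR. DMSO cells were kept without drug for 21 days and then given DMSO for 3 days. Osimertinib DTP cells (drug-tolerant persisters, cells that survive a prolonged drug exposure) received 500 nM of osimertinib, an inhibitor of mutant EGFR, over 24 days. Osimertinib DTP + AZD5153 cells received the same dose over 21 days and then 150 nM of AZD5153, a bromodomain inhibitor, for 3 days. The labels do not say whether osimertinib stayed on in those last days. Each group had 3 libraries, described as biological replicates of this single line, and 1 pooled input library of sonicated chromatin served all groups.

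H3K27ac is laid down by the acetyltransferases p300 and CBP and marks active promoters and enhancers. Bromodomains are protein modules that bind acetylated lysines, those of histones included. Peaks that are found in a single library, or that lie far from any gene, are commonly set aside before such regions are assigned to genes.

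For regions outside the annotated table, sequence was read only where a RefSeq promoter (250 bases before to 50 bases after a gene start, GRCh38.p14) lay wholly inside a region. This was so for 506 of the 35116 RefSeq promoters, and 53.8% of these held 10 or more CG dinucleotides, against 56.4% of all promoters of the same length and 86.4% of the 1380 that lay inside annotated regions. Only 20 lay in a region of the high-level class defined below, 14 of them promoters of long noncoding RNAs (lncRNAs), and 35% of the 20 held 10 or more CG dinucleotides. Of these 14, the 3 in regions of highest level and any other in a region called in a comparison are shown, 5 in all, since these start sites lay in regions of that class without a gene assignment in the annotated table. CG dinucleotides are in capitals.
LOC107984469 (chr12:38138240-38138539, plus strand): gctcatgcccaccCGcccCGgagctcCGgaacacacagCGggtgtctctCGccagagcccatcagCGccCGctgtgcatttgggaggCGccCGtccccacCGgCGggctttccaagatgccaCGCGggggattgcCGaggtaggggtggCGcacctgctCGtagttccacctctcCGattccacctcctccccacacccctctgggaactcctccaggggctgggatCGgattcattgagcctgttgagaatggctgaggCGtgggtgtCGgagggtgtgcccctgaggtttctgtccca
LOC107984238 (chr10:63700310-63700609, minus strand): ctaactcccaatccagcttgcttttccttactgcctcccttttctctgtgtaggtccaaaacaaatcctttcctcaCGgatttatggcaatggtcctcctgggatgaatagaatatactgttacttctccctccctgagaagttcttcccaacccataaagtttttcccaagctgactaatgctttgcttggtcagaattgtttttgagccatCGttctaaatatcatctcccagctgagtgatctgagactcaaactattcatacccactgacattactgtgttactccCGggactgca
LOC105372568 (chr20:22805522-22805821, plus strand): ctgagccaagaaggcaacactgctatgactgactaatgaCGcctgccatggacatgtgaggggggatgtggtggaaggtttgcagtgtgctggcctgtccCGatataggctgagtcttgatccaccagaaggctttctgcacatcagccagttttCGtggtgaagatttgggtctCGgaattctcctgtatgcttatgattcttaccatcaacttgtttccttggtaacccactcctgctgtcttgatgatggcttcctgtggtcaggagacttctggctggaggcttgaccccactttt
GABARAPL1-AS1 (chr12:10215018-10215317, minus strand): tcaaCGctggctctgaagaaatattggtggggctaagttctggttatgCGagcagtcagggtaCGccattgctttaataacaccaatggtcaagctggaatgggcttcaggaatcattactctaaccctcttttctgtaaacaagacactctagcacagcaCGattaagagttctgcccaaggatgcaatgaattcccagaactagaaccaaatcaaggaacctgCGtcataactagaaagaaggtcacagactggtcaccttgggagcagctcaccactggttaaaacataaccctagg
LOC105374434 (chr4:43330647-43330946, minus strand): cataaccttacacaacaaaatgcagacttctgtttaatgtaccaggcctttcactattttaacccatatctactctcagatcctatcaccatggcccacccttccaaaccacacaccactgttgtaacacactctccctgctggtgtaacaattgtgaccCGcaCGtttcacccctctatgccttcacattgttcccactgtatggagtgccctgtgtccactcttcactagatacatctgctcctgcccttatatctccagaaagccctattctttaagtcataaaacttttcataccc
The LOC107984469 promoter held 20 CG dinucleotides and the other 4 held 2 to 5. The AP-1 motif TGACTCA and the TATA motif TATAAA, searched on both strands, were found in none of the 5, and the TEAD motif GGAATG was found once, in the GABARAPL1-AS1 promoter. Over all promoters the shares with these motifs were 4.95%, 11.5% and 14%.

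The total count over all regions was 8839536 to 10463351 in 8 of the H3K27ac libraries, 6263443 in replicate 3 of osimertinib DTP + AZD5153, and 1870885 in the input. That replicate stood apart also in the regions outside the annotated table. It had no read in 7979 of them, against 192 to 2979 in the other libraries, and 1.71% of its counts fell in the high-level class, against 3.3% to 5.65%. The main counts, and the counts against DMSO by gene list and distance, are given with and without it.

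The regions outside the annotated table held 15.1% to 28.1% of the H3K27ac counts, and treatment did not move that share beyond the spread between replicates. The share was 25.2%, 20% and 25.7% in the DMSO replicates, 26.1%, 15.1% and 28.1% in osimertinib DTP, followed by 23.4%, 21.8% and 20.7% in osimertinib DTP + AZD5153. Replicate 2 of osimertinib DTP was the lowest of all 9 and replicate 3 of the same group the highest, so the groups overlapped. The group means were 23.7% ± 3.15, 23.1% ± 6.96 and 22% ± 1.35 (SD, n = 3). The differences were −0.55 percentage points for osimertinib DTP against DMSO (p = 1), −1.14 for osimertinib DTP + AZD5153 against osimertinib DTP (p = 0.9) and −1.69 for osimertinib DTP + AZD5153 against DMSO (p = 0.4) in two-sided exact permutation tests. After Benjamini-Hochberg adjustment over these 3 tests each exact p was 1, and 3 libraries against 3 cannot give a value below 0.1.

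In the input the same regions held 49.5% of the counts (exact binomial 95% interval 49.42% to 49.56%, counting error only), which is above the share in each of the 9 H3K27ac libraries. Scaled to the library total over all regions (CPM, counts per 1000000 of that total), the mean level of an annotated region was 3.89 to 8.5 times that of a region outside the table in the H3K27ac libraries and 1.55 times in the input. The annotated table holds no region below 4.00 CPM in its highest group, so this ratio is in part what the filter chose and is given without a test. When the input, scaled to the same total, was subtracted from each count, the share in regions outside the table was 3.5% to 12.6%. This scaling gives the input as many counts over the regions as the H3K27ac library, so it can take off more than the background. On it, 41.5% to 61.3% of annotated regions exceeded the input in a library, and the subtracted shares depend on this scale.

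**Figure D1:**
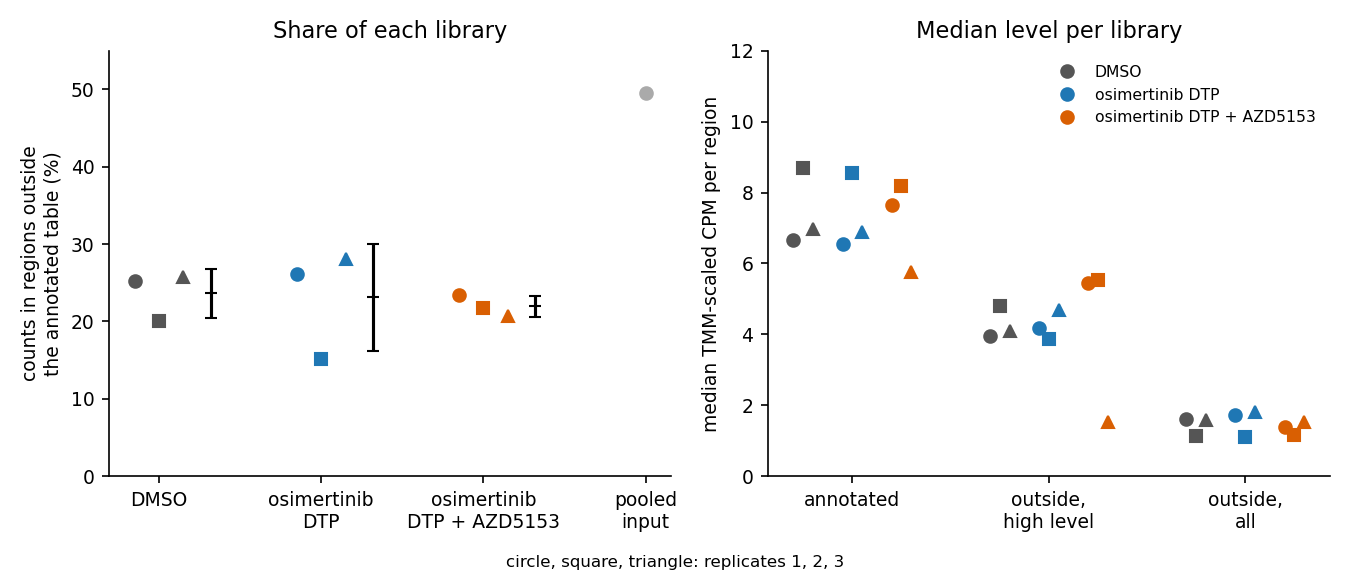
Left, percentage of each library's counts in regions outside the annotated table, for 3 replicates in each of the H3K27ac groups and for the pooled input (horizontal ticks with bars: mean ± SD). Right, median TMM-scaled CPM per region in each library for annotated regions, high-level regions outside the table and all regions outside it. The input stood at 49.5%, above all H3K27ac libraries (15.1% to 28.1%), and the high-level regions lay between the other classes except in replicate 3 of osimertinib DTP + AZD5153.

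Most regions outside the table carried a peak in few libraries. Peaks had been called in each library separately, and every region overlapped a peak in at least 1 of the 9 lists. Outside the table, 41525 regions (40.6%) had a peak in 1 list, 21960 (21.5%) in 2, and 830 (0.812%) in all 9, whereas 27288 of the 67387 annotated regions had a peak in all 9 and none had fewer than 3. Among the regions with a peak in 1 list, 16737 (40.3%) had it in replicate 3 of osimertinib DTP + AZD5153, and the other libraries held 992 to 5511 each. In that library these 16737 regions had a median of 19 counts, and 80.6% of them lay within a gene. The annotated table showed 3 properties without exception: a peak in all 3 replicates of at least 1 group, a mean of at least 4.00 CPM in its highest group, and a distance of at most 99978 bp to the transcription start site assigned by the authors.

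With the first 2 of these properties the regions outside the table were split, after the values had been seen, into 3 classes. A peak was not replicated in all libraries of any group in 88928 regions (87%). A replicated peak with a level below 4.00 CPM was present in 6973 regions (6.82%). The remaining 6349 regions (6.21%) had both a replicated peak and a level of 4.00 CPM or more, and are called the high-level class. The size of this class depended on the scale. It was 7425 regions with TMM-scaled CPM, of which 6273 were shared, and 12638 without replicate 3 of osimertinib DTP + AZD5153, of which 6344 were shared. The lowest level of an annotated region, which sets the limit, was then 3.72 and 2.43 CPM. By level alone, with no peak asked, 20825 regions outside the table reached it.

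The 3 classes differed in level, input and position. The median CPM in the highest group was 2.41 without a replicated peak, 3.34 in the replicated low-level class, 7.24 in the high-level class and 11.1 in annotated regions. These levels follow from how the classes were cut. The median input count was 8, 6, 10 and 13 in the same order. The classes were not cut on input itself, but it was correlated with level, so this order is not independent of the cut. The highest group exceeded the input, on the CPM scale, in 14.5% of regions without a replicated peak, 54.4% of the replicated low-level class, 78.7% of the high-level class and 82.4% of annotated regions. This scale counts reads in the regions alone, so a region below the input on it can still hold a called peak. The largest fold enrichment over background among the peaks on a region had a median of 4.84, 9.93, 15.9 and 20.2 in the same order. This maximum was taken over a median of 2, 5, 6 and 8 peak lists, so its order is in part set by the cut. Input and H3K27ac levels rose together across the regions outside the table (Spearman's rho 0.54 over 102250 regions, 0.52 over the 6349 of the high-level class), given as a description, since all points come from the same libraries.

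**Figure D2:**
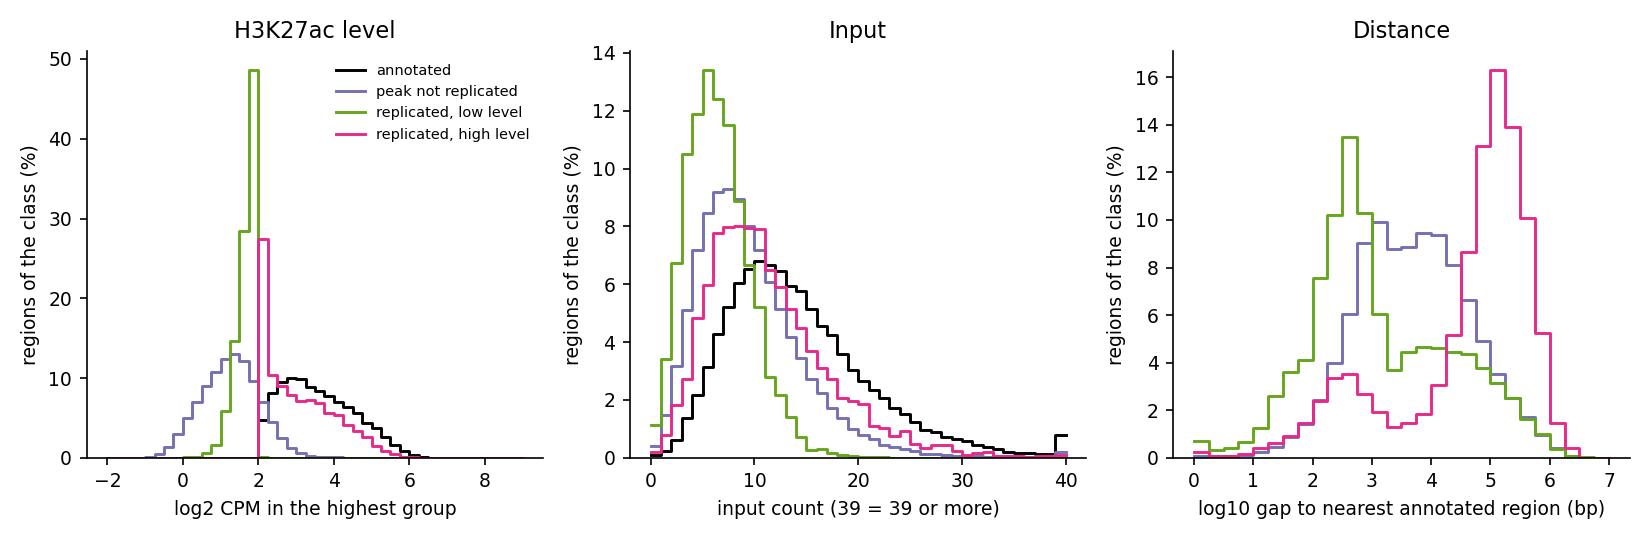
Share of the regions of each class (in %) by log2 CPM in the highest group, by input count and by log10 of the gap in bp to the nearest annotated region. The high-level class overlapped annotated regions in level (medians 7.24 and 11.1 CPM) and had a median gap of 90479 bp to them.

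The gap from a region outside the table to the nearest annotated region had a median of 5073 bp (quartiles 925 and 28096) and reached 4437023 bp. The replicated low-level class lay closest, with a median gap of 729 bp and 55.2% of its regions under 1 kb away. The annotated table held no region over 99978 bp from its assigned start, so the distances of the high-level class, which shares its peak and level properties, are in part fixed by how the classes were cut and are given as a description. This class had the largest gaps, with a median gap of 90479 bp and 47.5% of its regions over 100 kb away. Of its 5949 regions on chromosomes with RefSeq start sites here (all but chromosome 8), 78.5% were over 100 kb from the nearest protein-coding start, against 27.6% of all regions outside the table and 16% of annotated regions. The nearest start site was that of a lncRNA for 70.2% of the high-level class and 40.4% of all regions outside the table. Only 46.5% of the high-level class lay within a gene, against 69.6%.

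The share of regions outside the table that belonged to the high-level class ranged from 1.65% on chromosome 19 and 2.75% on chromosome 17 to 9.05% on chromosome 8 and 9.42% on chromosome 6. Merged within 1000 bp with no annotated region between them, the regions formed 68396 loci, 46219 (67.6%) of them a single region. The largest was a run of 22 regions, 14 in the high-level class, on chromosome 9 (38169744 to 38188379), 27410 bp from the nearest annotated region, with LOC107987064 nearest and the adaptor protein gene SHB the nearest protein-coding gene. Its mean TMM-scaled CPM per region was 6.62, 13.8 and 12.3 in DMSO, 3.44, 5.49 and 9.18 in osimertinib DTP, followed by 3.15, 9.33 and 2 in osimertinib DTP + AZD5153. The groups overlapped, and against DMSO 2 of its 22 regions fell in osimertinib DTP and 7 after AZD5153. A run of 14 regions on chromosome 6 (161413105 to 161425821, LOC105378094) had means of 4.41, 2.13 and 2.03 in DMSO and 14.6, 7.74 and 7.97 after AZD5153, and 5 of its regions rose in that comparison. The runs at LOC105372339 on chromosome 19 (16 regions), FLNA on chromosome X (16 regions, none in the high-level class) and ZMIZ1-AS1 on chromosome 10 (15 regions) held no called region.

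The first comparison asked where acetylation outside the annotated table differed between osimertinib DTP and DMSO. A region was called at an adjusted p under 0.05 in edgeR's quasi-likelihood test with Benjamini-Hochberg adjustment over all 157919 tested regions, of which 90532 were outside the annotated table. Of these, 4108 (4.54%) were higher in osimertinib DTP, against 5.58% of all tested regions, and 3237 (3.58%) were lower, against 5.13%. Both shares lay below those of all regions. The smallest change called outside the table was 1.69 on the log2 scale, and the median standard error of a log2 fold change was 0.75 there and 0.6 in annotated regions. The class with a level near that of annotated regions had more calls: 918 of 6349 high-level regions were higher (14.5%) and 793 lower (12.5%). Since this class was cut on the level of the highest group, its shares are a description. The calls of this comparison depended on single libraries. There were 273 without replicate 2 of DMSO and 871 without replicate 3 of DMSO. Without replicate 3 of osimertinib DTP + AZD5153 there were 22160, with 12300 higher (13%) and 9860 lower (10.4%). Of all 161758 regions then tested, 14.2% were higher and 12.7% lower. That library is in neither group, and enters through the common filter, TMM scaling, spread and p-value adjustment. All 7345 regions called with it were among the 22160, with the same sign.

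The second comparison set osimertinib DTP + AZD5153 against osimertinib DTP. The labels do not say whether osimertinib stayed on beside AZD5153. Addition of AZD5153 and withdrawal of osimertinib therefore cannot be told apart, here or in changes given as after AZD5153. No region was called between osimertinib DTP + AZD5153 and osimertinib DTP by edgeR's quasi-likelihood test, inside or outside the table (0% of all tested regions). The unadjusted p was under 0.05 in 3997 of the 90532 regions outside the table. DESeq2 called 34 of them, 4 higher and 30 lower. Without replicate 3 of osimertinib DTP + AZD5153, edgeR called 107, of which 78 were higher (0.0827%) and 29 lower (0.0307%). Of all tested regions 0.0637% were higher and 0.0593% lower in that fit, and of annotated regions 25 were higher and 67 lower.

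The third comparison set osimertinib DTP + AZD5153 against DMSO and shares its DMSO libraries with the first. Here 7071 regions outside the table were higher (7.81%), against 9.05% of all tested regions, and 6751 were lower (7.46%), against 9.01%. Of the calls 51.2% were higher. Without TMM scaling this was 37.5% (4114 higher, 6850 lower), and the median over all tested regions of the log2 fold change moved from 0.23 to −0.02, so the balance of rises and falls depended on the scaling. In the high-level class 1163 regions were higher (18.3%) and 1049 lower (16.5%). Without replicate 3 of osimertinib DTP + AZD5153 these were 2022 (31.8%) and 1318 (20.8%), against 18.4% and 17.3% of all tested regions. Leaving out replicate 3 of osimertinib DTP + AZD5153 gave 33314 calls, among them 13639 of the 13822 with the same sign, and leaving out replicate 2 of DMSO gave 3096.

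The regions outside the table were also split by their gap to the nearest annotated region. The high-level class made up 3.78% of the 26858 regions under 1 kb from an annotated region, 1.19% of the 34686 at 1 to 10 kb, 6.6% of the 28894 at 10 to 100 kb and 25.5% of the 11812 at 100 kb or more. The last of these shares is in part set by the distance limit of the annotated table. The median input counts were 8, 8, 8 and 7. In osimertinib DTP against DMSO, 3.57%, 2.02%, 5.64% and 12.2% of tested regions were higher in these 4 bins, and 2.71%, 2.05%, 3.96% and 9.62% were lower. In osimertinib DTP + AZD5153 against DMSO, 5.15%, 4.5%, 11% and 17.4% were higher and 7.2%, 5.03%, 7.51% and 15.5% lower. With all 9 libraries, only the farthest bin exceeded, in both directions and in both comparisons, the shares over all tested regions. The high-level class, called at 14.5% and 12.5% in the first comparison, made up 25.5% of that bin. Level and distance were therefore not separated in these shares, and the part of level was not tested. Without replicate 3 of osimertinib DTP + AZD5153 the first comparison gave 9.89%, 8.01%, 16.8% and 26.7% higher in the 4 bins, against 14.2% of all tested regions. The shares lower were 9.23%, 7.63%, 11.1% and 20%, against 12.7%. Without replicate 2 of DMSO the farthest bin gave 0.946% higher and 0.477% lower, against 0.407% and 0.294%. In the comparison of osimertinib DTP + AZD5153 with DMSO, leaving out its replicate 3 gave 10.5%, 11.8%, 26% and 36.3% higher and 20%, 17.3%, 13.6% and 18.9% lower in the 4 bins, against 18.4% and 17.3% of all tested regions. The share of falls was then largest under 1 kb. Leaving out replicate 2 of DMSO gave 4.98% and 4.5% in the farthest bin, against 2.41% and 2.77%.

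**Figure D3:**
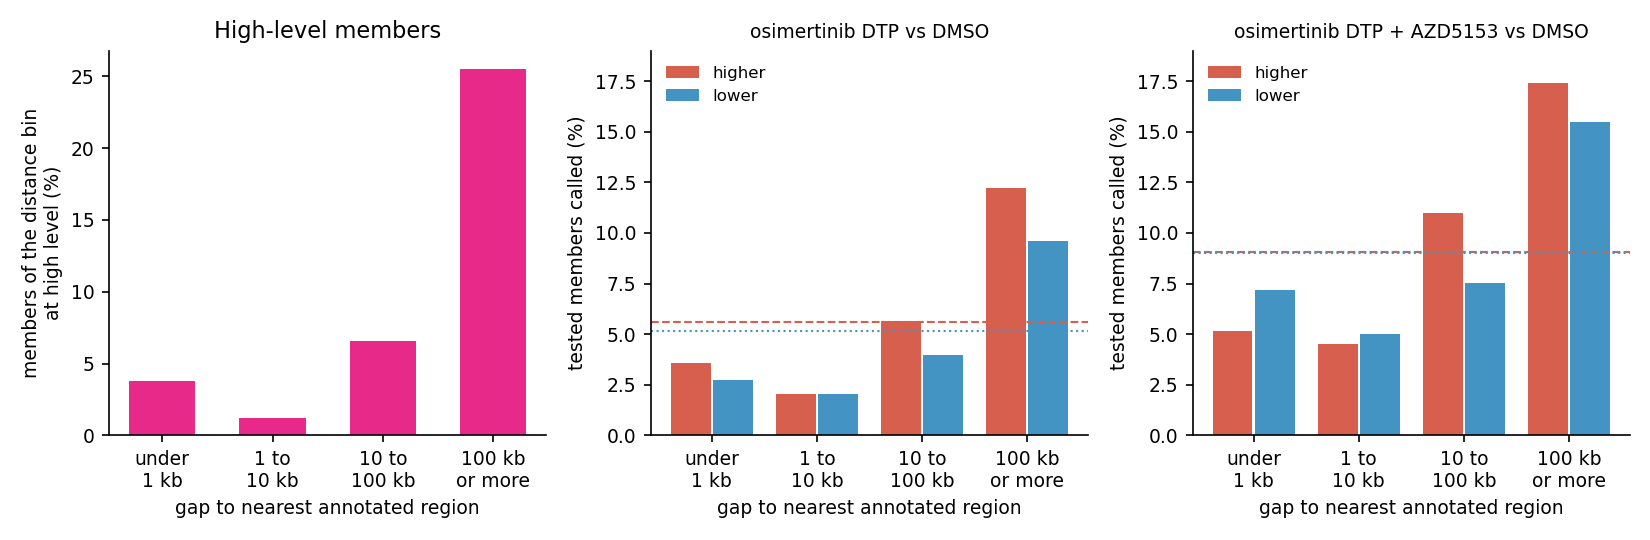
Regions outside the annotated table by gap to the nearest annotated region: the percentage in the high-level class, and the percentage of tested regions higher or lower in each treated group against DMSO (edgeR, adjusted p under 0.05). With all 9 libraries, as plotted, the 5 shares were largest at 100 kb or more, but without replicate 3 of osimertinib DTP + AZD5153 the falls in that group were 20% under 1 kb and 18.9% at 100 kb or more.

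Near an annotated region, the region outside the table changed with it. Over 26197 tested regions under 1 kb away, the Spearman coefficient between the log2 fold change of a region and that of its nearest annotated region was 0.87 in osimertinib DTP against DMSO. It was 0.55 at 1 to 10 kb, 0.28 at 10 to 100 kb and 0.19 at 100 kb or more. The points share libraries and scaling, and neighbouring regions can share reads of the same element, so these values are descriptive. Where both regions were called, the sign was the same in 1366 of 1366 regions under 1 kb, 601 of 610 at 1 to 10 kb, 602 of 703 at 10 to 100 kb and 364 of 508 at 100 kb or more. Of all 2190 called regions at 100 kb or more, these 508 were the ones whose nearest annotated region was called too. In osimertinib DTP + AZD5153 against DMSO the coefficients were 0.84, 0.52, 0.27 and 0.19, and between osimertinib DTP + AZD5153 and osimertinib DTP they were 0.6, 0.33, 0.17 and 0.08.

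**Figure D4:**
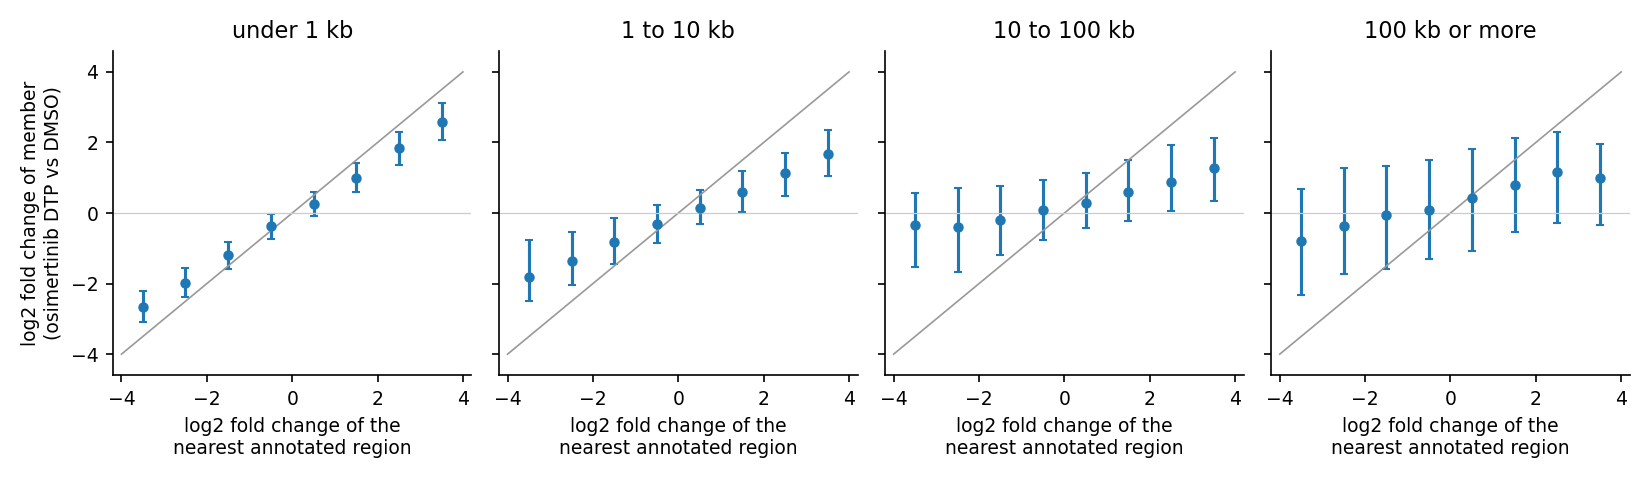
Log2 fold change (osimertinib DTP against DMSO) of regions outside the annotated table, as median and quartiles, against that of the nearest annotated region in steps of 1, in 4 ranges of the gap; the diagonal marks equal change. Under 1 kb the medians ran near the diagonal (2.58 where the neighbour changed by 3 to 4), and at 100 kb or more they lay closer to 0.

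The largest rises in osimertinib DTP lay at regions nearly without reads in DMSO. The region on chromosome 4 (158042937 to 158043438), 129186 bp from the start of GASK1B, a Golgi-associated kinase gene, had 0 counts in all 3 DMSO libraries. Its TMM-scaled CPM was 3.32, 4.41 and 4.19 in osimertinib DTP, followed by 7.65, 6.46 and 0.767 in osimertinib DTP + AZD5153. Set against a floor of 3 counts over the group, it was at least 40.4-fold higher in osimertinib DTP (edgeR quasi-likelihood, Benjamini-Hochberg adjusted p = 0.00356) and at least 59-fold higher after AZD5153 (adjusted p = 0.00141).

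A region within PARD3B (chromosome 2, 204665017 to 204665518), a gene of the PAR polarity family, had 0.0899, 0.102 and 0.0995 CPM in DMSO. It had 13.2, 20.2 and 19.7 in osimertinib DTP, followed by 34.1, 38.2 and 4.41 in osimertinib DTP + AZD5153. Every treated library lay above every DMSO library. The ratio of counts was 179 (counting interval 60.9 to 871) and 300 (102 to 1458), with edgeR adjusted p of 0.00273 and 0.00114. The region 104952 bp from AVPR1A (chromosome 12, 63045999 to 63046500), which encodes a vasopressin receptor, had 0.0899, 0.307 and 0.199 CPM in DMSO, 15.1, 32.9 and 31.7 in osimertinib DTP, then 18.2, 25.1 and 8.43 after AZD5153. Its log2 fold change against DMSO was 6.99 ± 0.79 (SE, edgeR adjusted p = 0.00273) in osimertinib DTP and 6.37 ± 0.78 (adjusted p = 0.00114) after AZD5153.

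A further 3 regions with large rises after AZD5153 also rose in osimertinib DTP, each with a lncRNA nearest. They lay at LOC105370304 (chromosome 13, 87999849 to 88000350), LOC124909471 (chromosome 3, 187567894 to 187568395) and LOC124902547 (chromosome 10, 57696015 to 57696516). At LOC124909471, 102250 bp from SST, the somatostatin gene, the CPM was 0.36, 0.614 and 0.199 in DMSO, 20.9, 28.2 and 27.9 in osimertinib DTP, then 44.1, 46.6 and 6.52 after AZD5153. The log2 fold changes against DMSO were 5.99 ± 0.82 and 6.33 ± 0.83 there, and 6.26 to 6.89 at the other 2 regions. The gap to an annotated region was 162998 bp for this region, 540623 bp at LOC124902547 and 1401022 bp at LOC105370304.

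The largest falls lay at regions with reads in every DMSO library and few or none after treatment. Of the 9 regions named for a fall, those at IL33, LOC124907995, LINC02955 and LINC01363 had no replicated peak, and their input counts were 8, 11, 8 and 4. The region 61783 bp from IL33 (chromosome 9, 6153116 to 6153617), which encodes an alarmin cytokine of epithelial cells, had 2.07, 5.73 and 2.99 CPM in DMSO and 0 counts in all 6 treated libraries. It was at least 32.7-fold lower in osimertinib DTP (edgeR adjusted p = 0.00484) and at least 28.1-fold lower after AZD5153 (adjusted p = 0.00294). The region in PCSK5 (chromosome 9, 75993099 to 75993600), a proprotein convertase gene, had 7.64, 25.4 and 18.4 CPM in DMSO and 0 to 0.577 in the treated libraries. Its log2 fold change was −6.81 ± 0.95 (SE, edgeR adjusted p = 0.00273) in osimertinib DTP and −6.05 ± 0.91 (adjusted p = 0.00123) after AZD5153.

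The remaining named falls all had a lncRNA nearest. The region that holds the LOC105374434 promoter printed above (chromosome 4, 43330512 to 43331013), 672870 bp from an annotated region, had 6.65, 9.63 and 5.97 CPM in DMSO and 0 to 0.231 in the treated libraries. The ratio of DMSO to treated counts was 68.4 (23.1 to 334) for osimertinib DTP and 58.9 (19.9 to 287) after AZD5153. The regions at LOC124907995, LOC105374814, LINC02955, LOC107985670 and LINC01363 had no count in any library of osimertinib DTP + AZD5153 and were at least 41-, 44.4-, 34.1-, 32.5- and 30.5-fold lower there than in DMSO. In osimertinib DTP these 5 had 2 to 12 counts over the group, against 118 to 172 in DMSO. At LOC105370063 (chromosome 12, 127053018 to 127053519) the CPM was 2.7, 3.79 and 3.98 in DMSO, and 1 of the osimertinib DTP libraries held a single read.

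**Figure D5:**
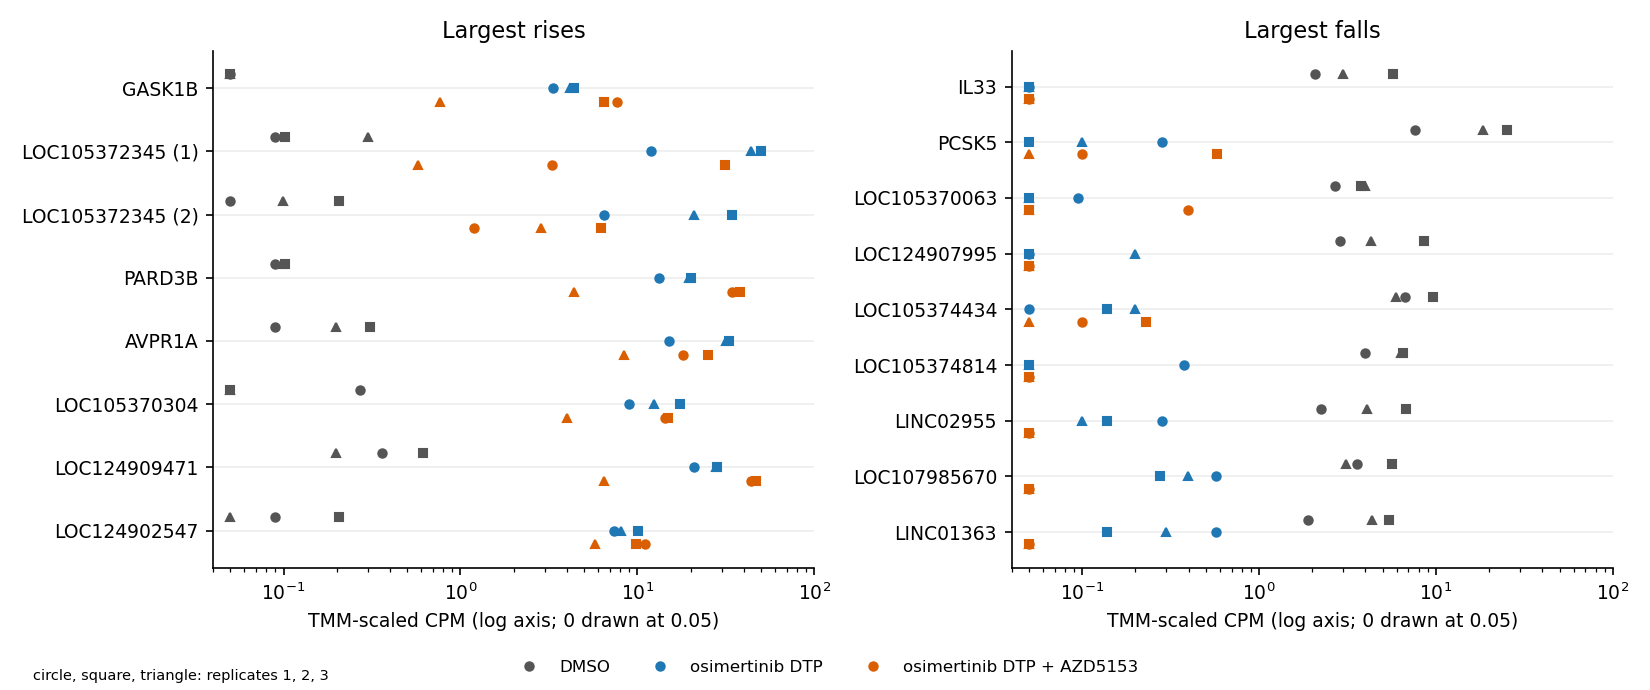
TMM-scaled CPM (log axis, counts of 0 drawn at 0.05) in each of the 9 H3K27ac libraries for the regions with the largest rises (left) and falls (right) outside the annotated table, named by the nearest gene. The regions were chosen for their change, and treated and DMSO libraries did not overlap at any of the 17; replicate 3 of osimertinib DTP + AZD5153 (triangles) was the lowest of its group at 7 of the 8 rises.

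Of the other promoters printed above, GABARAPL1-AS1 lay in a region (chromosome 12, 10214831 to 10215332) with 0.719, 0.41 and 0.697 CPM in DMSO, 4.55, 2.48 and 4.39 in osimertinib DTP, then 7.25, 4.73 and 1.53 after AZD5153. Its log2 fold change was 2.62 ± 0.68 (SE, edgeR adjusted p = 0.0211) and 2.88 ± 0.68 (adjusted p = 0.00888), and the first call was lost without any 1 of the DMSO libraries (adjusted p 0.0675 to 0.126) and without replicate 1 or 3 of osimertinib DTP (0.0606 and 0.0748). The second did not hold in the fit that left out replicate 2 of DMSO (0.0636). The LOC105372568 region rose after AZD5153 by 2.07 ± 0.68 (adjusted p = 0.0417), from 3.51, 2.87 and 2.19 CPM to 18.9, 15 and 1.92, where replicate 3 lay below all DMSO libraries. That call was lost in most alternatives: with the replicate block (1.79, adjusted p = 0.0731), without TMM (0.0754), with TMM on annotated regions (0.0607), in fits of the regions outside the table alone (0.0795) or of these groups alone (0.0861), and without any 1 library other than replicate 3 of osimertinib DTP + AZD5153 (0.0571 to 0.178). It held with DESeq2 (adjusted p = 0.0116), with a loess offset (0.0408), with no count filter (0.0415) and without that replicate 3 (0.000187). The CG-rich LOC107984469 region had 4.83 to 29.7 CPM over the 9 libraries and 14 input reads. The LOC107984238 region had 6.87 to 14.2 CPM in 8 libraries, 0.958 in replicate 3 of osimertinib DTP + AZD5153, and 12 input reads. Neither was called.

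The largest block of rises was next to the centromere of chromosome X. Windows of 1 Mb with at least 20 tested regions outside the table (1648 windows) were ranked by the share of these regions called, after the values had been seen, so the blocks are a description. On chromosome X from 58014139 to 58251587, with the zinc finger gene ZXDA nearest, 68 of 77 tested regions (88.3%) were higher in osimertinib DTP and none was lower, and no annotated region lay in the window. The mean TMM-scaled CPM of these 77 regions was 0.604, 1.31 and 0.644 in DMSO, 4.84, 9.51 and 12.2 in osimertinib DTP, followed by 1.33, 4.25 and 0.543 in osimertinib DTP + AZD5153. Osimertinib DTP lay above all other libraries, and after AZD5153 replicate 3 lay below all DMSO libraries. Against DMSO, 5 of the 77 were called higher in osimertinib DTP + AZD5153, and 26 higher and 1 lower without its replicate 3. In the first comparison 59 to 72 of the 77 were higher under the other tests, scalings and filters run and under the replicate block. With 1 of the 9 libraries left out the number was 21 (without replicate 2 of DMSO) to 73 (without replicate 3 of osimertinib DTP + AZD5153), and none was lower in any of these fits. The median input count of 5 in this window was below that of all regions outside the table, 8.

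The second block was on the long arm side of the centromere of chromosome 19 (27634104 to 27967257), with the lncRNA LOC105372345 nearest. There 42 of 50 regions outside the table (84%) and 33 of the 38 annotated regions in the window were higher in osimertinib DTP. The mean CPM was 0.394, 0.365 and 0.394 in DMSO, 5.62, 11.3 and 13.5 in osimertinib DTP, followed by 0.976, 4.17 and 0.613 in osimertinib DTP + AZD5153. As on chromosome X, replicate 2 was the highest after AZD5153. With 1 library left out, 20 (without replicate 2 of DMSO) to 49 (without replicate 3 of osimertinib DTP + AZD5153) of the 50 were higher in osimertinib DTP. The region at 27672168 to 27672669 had 0.0899, 0.102 and 0.299 CPM in DMSO, 12, 50.1 and 43.8 in osimertinib DTP, then 3.28, 31.4 and 0.575 after AZD5153. The region at 27634836 to 27635337 had 0, 0.205 and 0.0995 CPM in DMSO, 6.45, 34.3 and 21 in osimertinib DTP, then 1.19, 6.23 and 2.87 after AZD5153. Its ratio of counts to DMSO was 195 (66.5 to 950) in osimertinib DTP and 34.9 (11.5 to 173) after AZD5153.

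These blocks also held most of the falls between osimertinib DTP and osimertinib DTP + AZD5153 when replicate 3 of the latter was left out. Of the 29 falls outside the table in that fit, 15 were nearest to ZXDA and 3 to LOC105372345. The region at 58229049 to 58229550 had 5.4, 14.9 and 17.1 CPM in osimertinib DTP and 0.199, 0.461 and 0 after AZD5153, with a log2 fold change of −5.21 ± 0.75 (SE, edgeR adjusted p = 0.0192). Of the 78 rises in the same fit none was nearest to either gene. The 5 largest with enough counts were nearest to LOC107985242, LOC105373954, EPGN, MAN2A1 and S1PR1. At EPGN (chromosome 4, 74328735 to 74329236), which encodes epigen, a ligand of EGFR, the CPM was 0.629, 0.717 and 1.09 in DMSO, 0.19, 0.551 and 0.2 in osimertinib DTP, then 4.37, 4.04 and 0.575 after AZD5153. At S1PR1 (chromosome 1, 101203912 to 101204413), a receptor for sphingosine-1-phosphate, it was 0.758, 1.38 and 1.1 in osimertinib DTP and 15.7, 10.2 and 1.72 after AZD5153. In each of these rises replicate 3, which the fit left out, lay below replicates 1 and 2.

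At least 50% of the tested regions rose in 4 windows and fell in 3 windows in osimertinib DTP against DMSO, and the same was seen in 15 and 12 windows after AZD5153. Of all tested regions 5.58% rose and 5.13% fell in osimertinib DTP, and 9.05% and 9.01% after AZD5153. The windows below were picked for their shares with all 9 libraries. Without replicate 2 of DMSO, all calls outside the table numbered 273 and 3096 in these comparisons. On chromosome 1 (240385270 to 240834472), with RGS7 the nearest protein-coding gene, 14 of 24 regions rose in osimertinib DTP and 14 after AZD5153. On chromosome 8 (96096792 to 96988447), near the peptidase gene CPQ, 12 of 22 rose in osimertinib DTP and 17 after AZD5153. On chromosome 3 (25007704 to 25907166), near RARB, a retinoic acid receptor gene, 14 and 23 of 34 rose, whereas 2 of the 13 annotated regions in the window did. Other windows had annotated regions that changed too. On chromosome 11 (114060987 to 114417460, LOC101928940 nearest) 17 of 25 rose after AZD5153, and so did 26 of the 34 annotated regions. The falls were led by chromosome 15 (36278408 to 36591677, LOC105370768 nearest), where 17 of 22 fell in osimertinib DTP and the mean CPM was 8, 14.7 and 10.9 in DMSO and 2.45, 1.33 and 1.75 in osimertinib DTP. On chromosome 16 (51048313 to 51995300, LOC102723323 nearest) 22 of 32 fell in osimertinib DTP and 26 after AZD5153. On chromosome 14 (98182368 to 98974483), with BCL11B the nearest protein-coding gene, 23 and 28 of 47 fell. In these 3 windows of falls at most 1 of the 1 to 5 annotated regions was called in either comparison. On chromosome 2 (180003765 to 180984063, LOC105373771 nearest) 14 of 24 fell after AZD5153, and so did 10 of the 15 annotated regions. No region outside the table was called in 214 of the 1648 windows in the first comparison and in 36 in the third.

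None of the 5 regions of highest level was called. The region on chromosome 16 (88332619 to 88333120, LOC112268182, 120411 bp from ZFPM1) had a mean of 84.1 TMM-scaled CPM over the 9 libraries, with 63.1, 88.9 and 75 in DMSO, 54.4, 122 and 62.6 in osimertinib DTP, then 61.5, 88.6 and 141 after AZD5153. A pair of regions in LOC105370546 on chromosome 14 had means of 66.4 and 54.5, the region in LOC105375821 on chromosome 8 had 60.3 and that at LOC105372339 on chromosome 19 had 56.3. All 5 had a peak in all 9 lists, and their input counts were 19 to 37, above the median of the high-level class, 10.

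The regions with the highest input lay together on chromosome 8. The 100 regions outside the table with the most input reads, 133 to 246 each, were all on chromosome 8, and 81 of them were nearest to PVT1, a lncRNA gene next to MYC, or to RN7SKP226. All 88 regions nearest to PVT1 (127797245 to 128123700) had 107 to 246 input reads, against a median of 8. Their mean TMM-scaled CPM was 21.7, 9.71 and 15.2 in DMSO, 26, 10 and 16 in osimertinib DTP, then 18.3, 10.9 and 27.4 after AZD5153. The groups overlapped, and none of the 88 was in the high-level class or called. Their median input was 150 reads, and its part in these levels was not tested.

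The called regions farthest from an annotated region were falls in 4 of 5 cases. A pair of regions 399722 and 398361 bp from PABPC4L on chromosome 4 lay 3124435 and 3123074 bp from an annotated region. The first (133801817 to 133802318) had 2.79, 5.73 and 3.28 CPM in DMSO, 0.284, 0 and 0.3 in osimertinib DTP, then 0.298, 0.231 and 0 after AZD5153, with log2 fold changes of −4.16 ± 0.9 (SE, edgeR adjusted p = 0.00939) and −4.22 ± 0.92 (adjusted p = 0.00588). The regions near KLHL1 on chromosome 13 and in LINC02835 on chromosome 4 fell after AZD5153 by 3.83 and 3.02 on the log2 scale. The region 195296 bp from BCHE, the butyrylcholinesterase gene, on chromosome 3 (165641877 to 165642378) rose after AZD5153, from 1.08, 1.64 and 1.59 to 5.96, 14.1 and 3.07 CPM (2.42 ± 0.69, adjusted p = 0.023).

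Regions outside the table were also grouped by the gene list of their nearest gene. Of 20 MAPK output and feedback genes, which are transcribed downstream of EGFR signalling, 12 were the nearest gene of a region outside the table. Near these, 89 regions were tested. None rose and 9 (10.1%) fell in osimertinib DTP, against 5.58% and 5.13% of all tested regions, with a median log2 fold change of −1.0 against 0.12 over all regions outside the table. The number of falls was 4 without TMM, 3 with TMM on annotated regions and 13 with a loess offset, with no rise in these, 0 without replicate 2 of DMSO, and 25, with 1 rise, without replicate 3 of osimertinib DTP + AZD5153. After AZD5153 2 rose (2.25%) and 10 fell (11.2%) against DMSO, where 9.05% and 9.01% of all tested regions did. Without replicate 3, 8 rose (8.89%) and 29 fell (32.2%), against 18.4% and 17.3%. In osimertinib DTP the 25 falls of that fit were 27.8% of the tested regions near these genes, against 12.7% of all. Without replicate 2 of DMSO the shares of all tested regions were 0.407% and 0.294% in osimertinib DTP. The 2 of highest level lay 206778 and 207425 bp from the start of ETV1, an ETS factor induced by ERK signalling. The region at 13779384 to 13779885 on chromosome 7 had 21.2, 43.3 and 32.3 CPM in DMSO, 2.84, 1.51 and 3.2 in osimertinib DTP, then 13.6, 11.9 and 2.11 after AZD5153. It fell by 3.66 ± 0.7 on the log2 scale in osimertinib DTP (SE, edgeR adjusted p = 0.0056). Against DMSO the change after AZD5153 was −1.80 ± 0.64 and did not pass the test (adjusted p = 0.0594), with replicate 3 at the osimertinib DTP level and replicates 1 and 2 between the groups. The neighbouring region at 13778737 had a log2 fold change of −3.04 ± 0.64 (adjusted p = 0.0084). Neither ETV1 region was called in osimertinib DTP without replicate 2 of DMSO, where no region near these genes fell.

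Of 22 YAP and TAZ target genes, which respond to the Hippo pathway, 17 were the nearest gene of a region outside the table. Among the 218 tested regions near them, 12 rose (5.5%) and 3 fell (1.38%) in osimertinib DTP. After AZD5153 29 rose (13.3%) and 6 fell (2.75%). Over all tested regions the shares were 5.58% and 5.13%, then 9.05% and 9.01%, so the share of rises in osimertinib DTP was near that of all regions. The median log2 fold changes were 0.48 and 0.56, against 0.12 and 0.23 over all regions outside the table. In osimertinib DTP 4 rose and none fell without TMM, and none was called without replicate 2 or 3 of DMSO. Without replicate 3 of osimertinib DTP + AZD5153, 38 rose (16.4%) and 13 fell (5.6%), against 14.2% and 12.7% of all tested regions. After AZD5153 61 rose (26.3%) and 14 fell (6.03%) without that replicate, against 18.4% and 17.3% of all tested regions. Without replicate 2 or 3 of DMSO 6 rose and none fell. The 2 of highest level, near LATS2 and MYOF, were not called. Near 8 of 16 epithelial-mesenchymal transition genes, 1 of 52 regions rose (1.92%) and 3 fell (5.77%) in osimertinib DTP. Of all tested regions 5.58% and 5.13% did, and none near these genes was called without replicate 2 or 3 of DMSO. After AZD5153 none rose and 7 fell (13.5%), against 9.05% and 9.01%. Without replicate 3, 9 rose (16.7%) and 10 fell (18.5%), against 18.4% and 17.3%. In osimertinib DTP that fit gave 4 rises (7.41%) and 6 falls (11.1%), against 14.2% and 12.7%. Near 12 of 17 lung lineage genes, 4 of 87 regions rose (4.6%) and 1 fell (1.15%) in osimertinib DTP, both shares below those of all regions. This was 1 rise and 2 falls with the replicate block, 1 and 1 with a loess offset, and no call without replicate 2 of DMSO. After AZD5153 5 rose (5.75%) and 2 fell (2.3%), again below all regions. Without replicate 3, 13 rose (14.6%) and 10 fell (11.2%), against 18.4% and 17.3%. In osimertinib DTP that fit gave 10 rises (11.2%) and 4 falls (4.49%), against 14.2% and 12.7%. The 2 of highest level in each of these lists, near TGFBI and TP63, were not called.

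Genes of neuronal adhesion and the synapse are long and stand in gene-poor intervals. Near 26 of the 43 genes listed there were 254 regions outside the table, 35 of them in the high-level class. Of 209 tested, 17 rose (8.13%) and 10 fell (4.78%) in osimertinib DTP, and 28 rose (13.4%) and 30 fell (14.4%) after AZD5153. Over all tested regions the shares were 5.58% and 5.13%, then 9.05% and 9.01%. Without replicate 3 of osimertinib DTP + AZD5153, 58 rose (24.3%) and 31 fell (13%) in osimertinib DTP, against 14.2% and 12.7% of all tested regions. In osimertinib DTP + AZD5153 that fit gave 102 rises (42.7%) and 36 falls (15.1%), against 18.4% and 17.3%. Without replicate 2 of DMSO none was called in osimertinib DTP, with 6 rises and 3 falls after AZD5153. At the highest of them, in OPCML, which encodes a cell adhesion molecule (chromosome 11, 132632269 to 132632770), the CPM was 18, 20 and 8.36 in DMSO, 20.8, 24.8 and 18.2 in osimertinib DTP, then 45.7, 46.6 and 9.01 after AZD5153. The groups overlapped there and the region was not called. Regions near markers of other cell types that a culture could hold were counted as well. None of 27 regions near 5 of 17 blood and immune genes was called in either comparison with DMSO. Without replicate 3 of osimertinib DTP + AZD5153, 1 (3.57%) and 4 (14.3%) fell, against 12.7% and 17.3% of all tested regions. Near 4 of 14 fibroblast and endothelial genes, 1 of 22 regions rose (4.55%) in osimertinib DTP, against 5.58% of all tested regions. After AZD5153 6 rose (27.3%) and 2 fell (9.09%), against 9.05% and 9.01%. Without that replicate 7 rose (28%) and 3 fell (12%) in osimertinib DTP, against 14.2% and 12.7% of all tested regions. After AZD5153 7 rose (28%) and 2 fell (8%) in that fit, against 18.4% and 17.3%. A pair of these lay in TEK, the angiopoietin receptor gene, 87 and 98 bp from annotated regions. Their CPM rose from 0.629, 1.33 and 0.896 to 12.2, 18.2 and 1.15, and from 0.899, 1.23 and 0.299 to 11.5, 17.5 and 0.958, with log2 fold changes of 3.47 ± 0.82 (SE, edgeR adjusted p = 0.00927) and 3.62 ± 0.85 (adjusted p = 0.00898). In replicate 3 neither region was above all DMSO libraries. The TEK regions were not followed singly under the alternatives.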

How the data were processed

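H3K27ac ChIP-seq libraries (9) and 1 pooled input of H1975 cells were grouped by the sample titles. The authors deposited raw read counts per region for all 169637 regions and the same counts, unchanged, for the 67387 regions of the annotated table, with gene and distance columns. The authors also deposited a peak list per H3K27ac library, with a score, a fold enrichment (ratio) over background and −log10 p and q values for each peak. Here their positions were used, their fold enrichment as a description, and in an alternative their −log10 q. The submitters' processing notes name BWA 0.7.17, MACS2 2.2.6, featureCounts 2.0.0, ChIPseeker 1.29.1 and build hg38. The parameters are not given in the sources used here, nor are the rules that formed the regions.

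Regions outside the annotated table, their classes and the gene lists were chosen with earlier results of these data known. Gaps were measured between region edges, peaks counted at an overlap of 1 bp. Nearest genes came from 35116 RefSeq start sites (GRCh38.p14); chromosome 8 had none here, so there genes were assigned by their span and no distance to a start is given. No genome sequence was used.

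The test was edgeR 4.0.16 in R 4.3.3 (with limma 3.58.1): filterByExpr (minimum count 10), TMM, and the robust quasi-likelihood test on all 9 H3K27ac libraries together, with Benjamini-Hochberg adjustment over 157919 regions at 0.05. The standard error is the log2 fold change divided by the square root of F. Intervals have a confidence level of 95% and, like the floor of 3 counts set where a group had none, hold only counting error. Total counts were 6263443 to 10463351, and regions outside the table had a median of 15.9 reads (mean over libraries). Chi-square per degree of freedom was at least 4.0 for each pair of replicates of the same group, so no library duplicated another of its group. Libraries of different groups were not compared in this way. The script was tested on simulated data. Python 3.11.15, pandas 2.3.3, scipy 1.17.1 and bedtools 2.31.1 were used.

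Named were, per comparison, the 5 called rises and 5 falls with the largest fitted change and at least 20 counts in every library of the higher group; the 5 regions each with the highest level, the highest input and the largest gap among called regions; the 5 largest loci; and the 2 of highest level per gene list. Windows of 1 Mb, promoters and regions near single genes were chosen after their values were seen. A test of the level ratio to annotated regions was computed and is not read, since the annotated table was filtered on level.

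Replicate numbers are shared by the groups. Libraries with the same number deviated together from the group means, at 0.334, 0.355 and 0.324 (Pearson, across regions) for osimertinib DTP and DMSO. The values were −0.018, 0.553 and 0.362 for osimertinib DTP + AZD5153 and DMSO, and 0.243, 0.026 and −0.24 for the treated groups. The main fit held no replicate block in any comparison, so its calls ignore a possible pairing. With the block, 6143 of the 7345 calls of the first comparison were shared, all with the same sign. Alternatives were DESeq2 1.42.0, no TMM, TMM on annotated regions, a loess offset (span 0.3), no filter, these regions alone, the groups compared alone, the replicate block, an adjusted p under 0.01, and each library left out.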

Additional observations from a re-analysis of the deposited data

How the results depend on the processing

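Called regions outside the annotated table numbered 7345 for osimertinib DTP against DMSO and 13822 for osimertinib DTP + AZD5153 against DMSO. An adjusted p under 0.01 gave 1056 and 3452, and a fit of only the groups compared gave 17993 and 6067. For the first comparison DESeq2 gave 13203, no TMM 4525 and TMM on annotated regions 4008; for osimertinib DTP + AZD5153 against osimertinib DTP, DESeq2 gave 34. With the replicate block the counts were 7093, 0 and 13309. The block changed the call of 1 of the named regions followed singly, LOC105372568. Leaving out each library gave 273 (without replicate 2 of DMSO) to 22160 (without replicate 3 of osimertinib DTP + AZD5153), 0 to 107, and 3096 to 33314 calls; the cause was not tested. The smaller groups leave an arm with 2 libraries. The difference in the share of counts in these regions kept no direction. Input-subtracted counts, which depend on how the input was scaled, gave 0.76 and 0.75 percentage points for osimertinib DTP + AZD5153 against osimertinib DTP and against DMSO. Leaving out a library gave −3.03 to 3.43, −5.12 to 1.33 and −3.51 to −0.67, with reversals at 3.43, 0.24, 0.48, 0.36 and 1.33. The mean log2 level ratio to annotated regions, −2.37, was −2.0 by medians, −1.74 relative to input and −2.42 to −2.28 without a library. The median gap was 5575 bp between centres and 3979 bp over regions that passed the count filter. Of 772 fold changes of named regions under alternatives, 719 kept the call, 53 lost it (16 without replicate 2 of DMSO) and 0 reversed. The regions at ETV1, TEK, EPGN and S1PR1 were not among these. Of 378 gene list counts 133 moved by over 1.5 times or to or from 0. The smallest change called was 1.53 on the log2 scale outside the table, in the high-level class, and 1.4 in annotated regions; the part of depth in this was not tested.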

Other observations

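Regions with a peak in a single list differed by library in ways that no comparison above uses. Those of replicate 2 of osimertinib DTP (992 regions) lay within 1 kb of a RefSeq start site in 17% of cases and had a median of 20 counts there. Those of replicate 3 of osimertinib DTP + AZD5153 (16737) did so in 7.05%, and those of the other 7 libraries in 2.1% to 3.22%. Their median gap to an annotated region ranged from 1686 bp for replicate 3 of DMSO to 22414 bp for replicate 2 of osimertinib DTP + AZD5153. In the library with the peak the median level was 2.16 to 3.73 CPM, against a median of 0.822 to 1.11 CPM for the mean of the other libraries.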
